A study of Mus musculus with 6 samples.

Results

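Antiviral restriction factors are host proteins that block a virus at a defined step of its life cycle, and most of them are induced by interferon. The mRNA of 10 such mouse genes was followed in SL4 cells: Bst2, Ifitm1, Ifitm2, Ifitm3, Mx1, Mx2, Rsad2, Cmpk2, Samhd1 and Samd9l. They were chosen by name, with earlier results of these data known, from the 53700 genes of the deposited expression table. The gene lists set beside them below were also chosen with those results known. Each name of the 10 matched 1 Ensembl identifier. SL4 is a luciferase-expressing mouse colorectal cancer (CRC) line. RNA-seq compared 3 libraries of SL4 cells without SEMA6A overexpression (pLV-Control) with 3 libraries of SL4 cells stably overexpressing SEMA6A from a lentivirus (pLV-SEMA6A). No other treatment, time point or allele is given in the labels. The promoter of the lentivirus and the vector carried by the pLV-Control cells are not given in the sources used here. The methods describe a single pLV-SEMA6A line, so SEMA6A and other differences between the lines cannot be told apart. Nothing says whether the 3 libraries of a group came from separate cultures, and p-values measure the spread between these libraries, which may be technical.

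Expression was given as TPM, a unit that takes account of how long a transcript is and of the total of the library, so that levels can be compared between genes. Over the listed genes, the sum per library was 977400 to 986444 TPM, and read depth is unknown, so no detection limit could be derived. Sema6a itself reached 98.7, 118 and 112 TPM with the lentivirus, and all pLV-Control libraries list it at 0. The labels of the latter say only that SEMA6A was not overexpressed. Of 9 markers of colon epithelium, 8 were under 1 TPM in every library, including Epcam and Cdx2, which were listed at 0 throughout. The pLV-Control libraries held 1.78, 2.33 and 2.33 TPM of the other marker, Lgals4, and the pLV-SEMA6A libraries 0, 0.28 and 0.81 TPM, and its call as downregulated rests on a gene that passed the filter on low values through pLV-Control. The summed level of the 9 markers was 1.91 to 2.82 TPM in pLV-Control and 0.53 to 1.33 TPM in pLV-SEMA6A. The label of a colorectal line was therefore not matched by epithelial mRNA. Of 10 leukocyte markers, 9 were under 1 TPM in every library and 5 were at 0 throughout, including Siglech of plasmacytoid dendritic cells, the cell type in which Bst2 is constitutively high. Their summed level was 1.17 to 2.53 TPM in pLV-Control and 0.87 to 1.78 TPM in pLV-SEMA6A. Of 6 markers of endothelium and fibroblasts, Cdh5 was at 0 throughout. The 6 summed to 14.0 to 14.2 TPM in pLV-Control and 11.9 to 12.8 TPM in pLV-SEMA6A. Most of this was Pdgfrb, with means of 10.5 and 6.66 TPM. Col1a1 was upregulated by 1.02 on the log2 scale. Pdgfrb was downregulated, with a log2 fold change of −0.59, and lost this call after centring each library on its median (−0.49). The part of these markers in the results below was not tested. In such bulk RNA, fewer cells that express a gene and less RNA per cell cannot be told apart.

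Type I interferons bind the Ifnar1 and Ifnar2 receptor, whose kinases activate transcription factors. A complex with STAT2 and IRF9 then binds the interferon-stimulated response element in the promoters of target genes. The restriction factors studied here act at different steps. The IFITM proteins hinder fusion of the virus with the cell membrane, the Mx GTPases trap viral components, and BST2 (tetherin) holds budding virions on the cell surface. RSAD2 (viperin) and CMPK2 work on the nucleotides that viral polymerases use, SAMHD1 degrades deoxynucleotides, and SAMD9L restrains poxviruses and cell growth.

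The 10 genes were lower in pLV-SEMA6A than in pLV-Control cells with few exceptions. To count as downregulated or upregulated, a gene needed a log2 fold change beyond 0.5 in size together with a Benjamini-Hochberg adjusted p below 0.05, from limma on log2(TPM + 1) over the 12510 genes whose mean reached 1 TPM. Of the 10 genes, 9 passed this filter, 8 of them were downregulated and 0 were upregulated, while 10.8% of all genes tested were downregulated and 5.12% upregulated. Among the 8, Cmpk2 passed the filter only through pLV-Control (mean 7.17 against 0.703 TPM in pLV-SEMA6A), which favours a call as lower. With a filter at a mean of 5 TPM, Cmpk2 was not tested and 7 members were downregulated. By the adjusted p alone, without a minimum fold change, 9 members were lower and 0 higher, against 28.2% and 19.5% of all genes tested. After median centring of the libraries, the split of all calls moved from 1347 downregulated and 640 upregulated genes to 961 and 1002. Ifitm2 was lower by less than the minimum of 0.5, and Mx1 was too low to be tested. In each of the 9 tested genes, every pLV-SEMA6A library lay below every pLV-Control library, which held for 34.7% of all genes tested. The opposite order was seen in 0 members and in 23.8% of all genes tested. The median log2 fold change was −1.06 over the 9 genes and −0.06 over all genes tested. Summed over the 10 genes, the pLV-Control libraries held 4915, 4935 and 4981 TPM and the pLV-SEMA6A libraries 2164, 2168 and 2161 TPM. Ifitm3, Bst2 and Ifitm2 made up 96.5% to 97.4% of that sum in every library. With 3 libraries a group, p = 0.1 is the smallest value of an exact permutation test, and limma reaches lower values by sharing its estimate of the spread among genes.

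**Figure D1:**
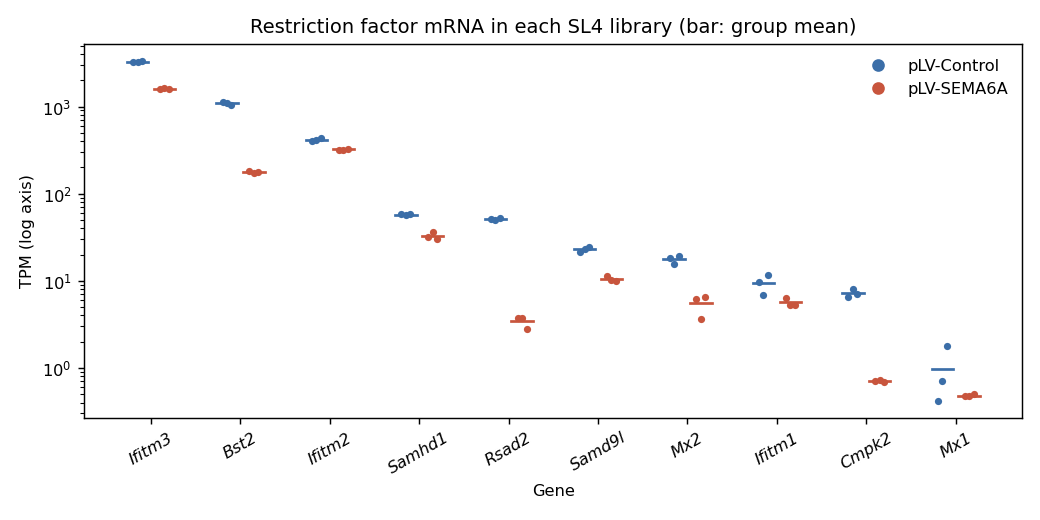
TPM of the 10 restriction factors (log axis) in the 3 pLV-Control (blue) and 3 pLV-SEMA6A (red) libraries, with 1 point for each library and a bar at the group mean. The points of the groups do not overlap except for Mx1, whose pLV-Control libraries spread from 0.42 to 1.78 TPM.

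The order of the levels differed between the groups. In pLV-Control it ran from Ifitm3 through Bst2, Ifitm2, Samhd1, Rsad2, Samd9l, Mx2, Ifitm1 and Cmpk2 to Mx1, and of neighbours in this order Ifitm1 and Cmpk2 alone had overlapping libraries. In pLV-SEMA6A, Ifitm2 stood above Bst2, with 319 to 327 TPM against 170.3 to 181 TPM. Rsad2 moved from place 5 to place 8, below Ifitm1 and Mx2, although its libraries overlapped with those of Mx2, as did those of Ifitm1. Cmpk2 and Mx1 were the lowest, under 1 TPM in every pLV-SEMA6A library.

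The promoters of the genes are shown because 8 of the 10 genes were downregulated and because interferon is known to act on such genes through promoter elements. RefSeq promoters on GRCm38.p6 were given for 8 of the 10 genes. The submitters' processing notes name mm39, a later build, so the positions below belong to the RefSeq sequences and not to the deposited table. The core of the interferon-stimulated response element was searched on both strands as GAAA, any 2 bases and again GAAA, from 250 bases before to 50 bases after the start. It occurred in 4 of the 8 promoters, those of Bst2, Ifitm2, Ifitm3 and Rsad2. Of the 32851 mouse promoters of the same length, some genes having several, 3.44% held it. Counted by gene, the share was 3.99% of 27025 genes. Capitals mark it in the sequences, which run 5′ to 3′ on the strand of the gene to base 30 after the start. The promoter of Cmpk2 is added as that of the divergent neighbour of Rsad2, and it holds no match.
Bst2, chr8:71537443-71537722, minus strand: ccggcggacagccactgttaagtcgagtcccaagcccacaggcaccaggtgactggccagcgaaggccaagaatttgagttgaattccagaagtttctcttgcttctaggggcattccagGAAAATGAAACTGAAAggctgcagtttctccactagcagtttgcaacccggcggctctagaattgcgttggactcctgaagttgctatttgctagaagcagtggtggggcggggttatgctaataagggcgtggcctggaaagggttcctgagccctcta
Ifitm2, chr7:140955932-140956211, minus strand: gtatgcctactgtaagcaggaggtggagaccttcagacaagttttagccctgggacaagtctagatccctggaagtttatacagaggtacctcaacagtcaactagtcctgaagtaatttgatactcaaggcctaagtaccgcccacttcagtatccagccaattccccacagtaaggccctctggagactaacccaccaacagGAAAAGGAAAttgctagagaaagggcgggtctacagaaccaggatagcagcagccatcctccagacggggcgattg
Ifitm3, chr7:141010715-141010994, minus strand: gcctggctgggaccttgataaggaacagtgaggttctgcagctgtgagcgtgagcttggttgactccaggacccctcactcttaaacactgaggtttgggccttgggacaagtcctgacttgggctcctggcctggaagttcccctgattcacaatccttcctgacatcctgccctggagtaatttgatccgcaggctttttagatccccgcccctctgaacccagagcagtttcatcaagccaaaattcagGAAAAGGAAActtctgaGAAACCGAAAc
Rsad2, chr12:26456423-26456702, minus strand: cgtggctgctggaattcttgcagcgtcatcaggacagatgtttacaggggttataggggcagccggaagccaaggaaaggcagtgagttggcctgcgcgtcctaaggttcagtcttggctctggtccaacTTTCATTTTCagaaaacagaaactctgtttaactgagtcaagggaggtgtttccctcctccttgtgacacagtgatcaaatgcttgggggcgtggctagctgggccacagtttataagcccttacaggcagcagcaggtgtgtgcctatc
Cmpk2, chr12:26468965-26469244, plus strand: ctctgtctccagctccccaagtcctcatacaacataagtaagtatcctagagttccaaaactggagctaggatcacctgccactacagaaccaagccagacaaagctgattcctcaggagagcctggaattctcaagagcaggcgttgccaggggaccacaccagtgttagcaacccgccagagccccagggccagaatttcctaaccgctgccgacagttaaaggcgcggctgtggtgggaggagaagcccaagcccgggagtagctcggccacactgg
In Bst2, 2 matches overlapped between bases −130 and −115, counted from the start. Ifitm2 held the match GAAAAGGAAA from base −46 to base −37, and Ifitm3 held the same letters from base 3 to base 12 after it, followed by GAAACCGAAA from base 20. In Rsad2 the match lay on the opposite strand, where it reads TTTCATTTTC on the strand of the gene. The gamma-activated site, searched as TTCNNNGAA on both strands, was found in Bst2, Ifitm3 and Samhd1. It was found in 8.3% of all promoters and 9.55% of all genes with a promoter. In Bst2 it overlapped the interferon motif by 3 bases, and in Ifitm3 likewise. TATAAA was found in Ifitm2 and Rsad2, on the opposite strand in both, and in 13.6% of all promoters and 15.7% of genes. These matches are letters in a window, and binding was not measured. Genes with and without the interferon motif were among the larger differences and among the smaller ones, with log2 fold changes from −3.57 to −0.37 for the 4 genes with a match and from −2.26 to −0.62 for the 4 without.

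The IFITM genes, which act at virus entry, lie together on chromosome 7 and were lower to unequal degrees. Ifitm3 (ENSMUSG00000025492), the family member best known for blocking influenza virus, was the most abundant of the 10 genes. The pLV-Control libraries held 3231, 3262 and 3332 TPM and the pLV-SEMA6A libraries 1603, 1618 and 1599.8 TPM (SD 51.7 and 9.83, n = 3 each), a 2.04-fold fall. By mean TPM it ranked 38 among all listed genes in pLV-Control and 91 in pLV-SEMA6A. Its log2 fold change was −1.03 (standard error 0.02, 95% interval −1.07 to −0.99, adjusted p = 3.8e-07 from limma). Ifitm2 (ENSMUSG00000060591), a close relative that also works at the endosome, had 403, 414 and 430.1 TPM with pLV-Control against 319, 319.9 and 327 TPM with pLV-SEMA6A. The groups did not overlap, and the log2 fold change of −0.37 (standard error 0.03, 95% interval −0.44 to −0.30, adjusted p = 1.5e-04 from limma) stayed below the minimum of 0.5. Ifitm1 (ENSMUSG00000025491), which in other cells sits mainly at the plasma membrane, was much lower, with 9.7, 6.82 and 11.7 TPM for pLV-Control against 6.28, 5.33 and 5.32 TPM for pLV-SEMA6A. Its groups were separated by the small step from 6.28 to 6.82 TPM. The log2 fold change of −0.62 (standard error 0.18, 95% interval −1.05 to −0.19, adjusted p = 0.0289 from limma) lost its call when any of 4 libraries was left out. Without pLV-Control replicate 1 or 3 or pLV-SEMA6A replicate 2 or 3, the adjusted p from limma was 0.0809, 0.0691, 0.0779 and 0.0812.

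Part of the IFITM reads could have been assigned to other genes. In GENCODE M21, 55.5% of the 31-base stretches of Ifitm2 transcripts also occur in other genes, most often in Gm45717, which overlaps it on the same strand and was listed at 0 to 1.43 TPM. The share was 20.5% for Ifitm3 and 11.6% for Ifitm1, most often in Gm7676 for both. It was 8.67% for Mx1 and 7.96% for Mx2, most often in each other, and at most 2.4% for the other 5 genes, with 0 for Bst2 and Cmpk2.

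Bst2 (ENSMUSG00000046718), on chromosome 8, had the second highest level in pLV-Control and showed one of the largest falls. The pLV-Control libraries held 1116, 1098 and 1045 TPM, the pLV-SEMA6A libraries 181, 170.3 and 178 TPM. The lowest pLV-Control library stood far above the highest pLV-SEMA6A library, and the means of 1086 ± 37.1 and 177 ± 5.72 TPM (SD, n = 3 each) differed 6.15-fold. The log2 fold change was −2.61 (standard error 0.04, 95% interval −2.70 to −2.53, adjusted p = 1.4e-07 from limma), and 35 of the 12510 genes tested fell more. By mean TPM, Bst2 ranked 135 in pLV-Control and 794 in pLV-SEMA6A. Its share of the summed TPM of the 10 genes was 21% to 22.7% in pLV-Control and 7.84% to 8.36% in pLV-SEMA6A.

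Rsad2 and Cmpk2, neighbours on chromosome 12 that are transcribed from opposite strands, fell most in terms of TPM ratios. Viperin, the product of Rsad2, makes a modified CTP that ends viral RNA chains, and CMPK2 is a mitochondrial kinase that supplies the nucleotide it starts from. Rsad2 (ENSMUSG00000020641) levels were 50.6, 50.3 and 52.7 TPM without and 3.72, 3.73 and 2.78 TPM with SEMA6A overexpression, a 15-fold fall with no overlap. The log2 fold change was −3.57 (standard error 0.10, 95% interval −3.81 to −3.34, adjusted p = 2.3e-06 from limma), and 7 of the genes tested fell more. Cmpk2 (ENSMUSG00000020638) levels were 6.5, 8.06 and 6.96 TPM without and 0.71, 0.72 and 0.68 TPM with SEMA6A overexpression, a 10.2-fold fall of the mean. It passed the filter on low values through its pLV-Control libraries. Its log2 fold change was −2.26 (standard error 0.12, 95% interval −2.54 to −1.98, adjusted p = 2.8e-05 from limma). With a pseudocount of 0.1 in place of 1, this value was −3.17 and that of Rsad2 was −3.88, since adding 1 TPM understates the change of low genes.

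Samhd1 and Samd9l fell less. Samhd1 (ENSMUSG00000027639), on chromosome 2, encodes the triphosphohydrolase that starves reverse transcription of deoxynucleotides. Its 57.9, 56.5 and 58.1 TPM of the pLV-Control libraries stood against 32.1, 35.8 and 30.5 TPM with SEMA6A, a 1.75-fold fall. The log2 fold change was −0.79 (standard error 0.06, 95% interval −0.94 to −0.65, adjusted p = 1.3e-04 from limma). Samd9l (ENSMUSG00000047735), on chromosome 6, had 21.3, 23.1 and 24.2 TPM without and 11.2, 10.2 and 9.83 TPM with SEMA6A overexpression, a 2.19-fold fall. The log2 fold change was −1.06 (standard error 0.07, 95% interval −1.23 to −0.89, adjusted p = 7.4e-05 from limma). In both genes the groups were clearly apart.

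The Mx genes encode dynamin-like GTPases and lie next to each other on chromosome 16. Most laboratory mouse strains carry defective Mx alleles, and GENCODE M21 annotates Mx2 as a polymorphic pseudogene and Mx1 as protein-coding. Mx2 (ENSMUSG00000023341) levels were 18.4, 15.4 and 19.0 TPM without and 6.25, 3.65 and 6.54 TPM with SEMA6A overexpression, a 3.21-fold fall. The log2 fold change was −1.55 (standard error 0.20, 95% interval −2.02 to −1.08, adjusted p = 0.00105 from limma). Its spread between libraries was wide, and leaving out each library in turn moved the value between −1.68 and −1.33. Mx1 (ENSMUSG00000000386) had only 0.42, 0.71 and 1.78 TPM with pLV-Control against 0.47, 0.47 and 0.5 TPM with pLV-SEMA6A. These groups overlapped, and without a filter on low values limma gave a log2 fold change of −0.35 with an adjusted p of 0.433.

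**Figure D2:**
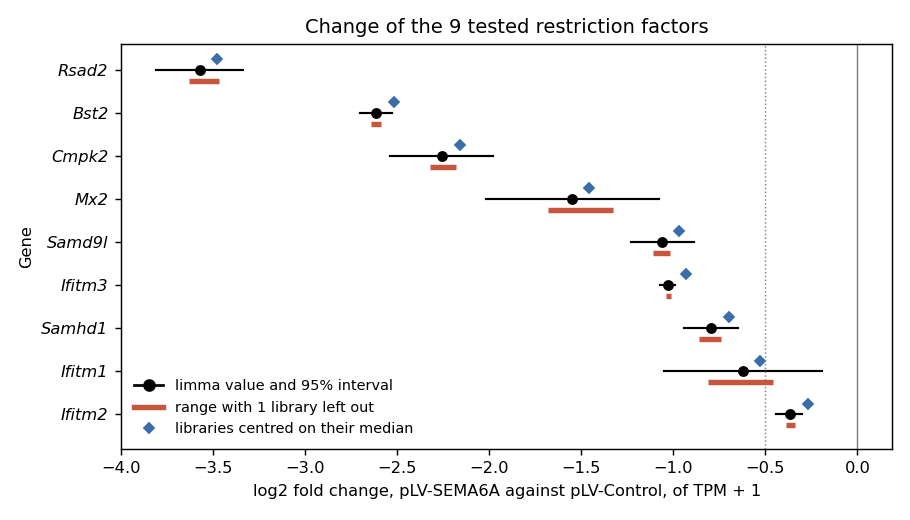
Log2 fold change of TPM + 1, pLV-SEMA6A against pLV-Control, of the 9 tested genes (black, limma value and 95% interval), with the range when each library was left out in turn (red) and the value after centring each library on its median (blue). Rsad2 at −3.57 and Ifitm2 at −0.37 are the ends, and the range of Ifitm1 crosses the dotted line at −0.5.

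Among all genes tested, the 9 genes stood on the falling side of the distribution. Fewer than 200 genes fell more than Mx2 (168), and 57 fell more than Cmpk2. Samd9l was exceeded by 366 genes, Ifitm3 by 400, Samhd1 by 688 and Ifitm1 by 1126. Ifitm2 was exceeded by 2583. With the same centring, the median log2 fold change of all genes moved from −0.06 to 0.03 and the 8 calls remained at 8, with Bst2 at −2.52, Ifitm3 at −0.93 and Ifitm1 at −0.53.

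**Figure D3:**
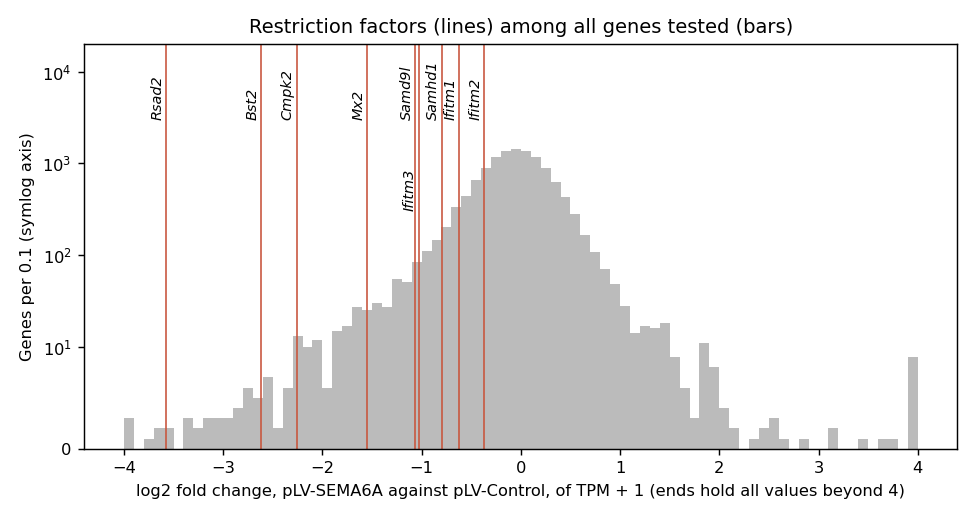
Distribution of the log2 fold change of TPM + 1 over the 12510 genes tested (grey bars, genes per bin of 0.1, symlog axis), with the 9 tested restriction factors as red lines. All lines lie left of 0, and Rsad2, Bst2, Cmpk2 and Mx2 lie in the sparse left tail.

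Pairs of neighbours and close relatives were compared within each library. The ratio of TPM values cancels the total of the library, whereas the difference of log2(TPM + 1) does so only for genes far above 1 TPM. Ifitm2 was at 0.125, 0.127 and 0.129 times the TPM of Ifitm3 in pLV-Control and at 0.199, 0.198 and 0.205 times in pLV-SEMA6A. The difference of log2(TPM + 1), Ifitm2 minus Ifitm3, was 0.66 higher in pLV-SEMA6A, and the libraries of the groups did not overlap. The ratio of Rsad2 to Cmpk2 was 7.78, 6.24 and 7.57 in pLV-Control and 5.24, 5.18 and 4.09 in pLV-SEMA6A, and on the log2(TPM + 1) scale it was 1.31 lower. The difference Mx1 minus Mx2 was 1.2 higher and Ifitm1 minus Ifitm3 was 0.40 higher in pLV-SEMA6A, both without overlap, while Ifitm1 minus Ifitm2 was 0.26 lower with overlapping libraries. For the 4 pairs without overlap, the exact permutation test, two-sided, gave p = 0.1, the smallest that 3 against 3 allows, and 0.125 after adjustment over the 5 pairs. For Ifitm1 and Ifitm2 the exact p was 0.4 before and after adjustment. With a pseudocount of 0.1, the change of Rsad2 minus Cmpk2 was −0.71 and that of Ifitm2 minus Ifitm3 still 0.66, without overlap, whereas the groups overlapped for Mx1 minus Mx2 and for Ifitm1 minus Ifitm3 (exact permutation test, adjusted p = 0.3 for both).

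**Figure D4:**
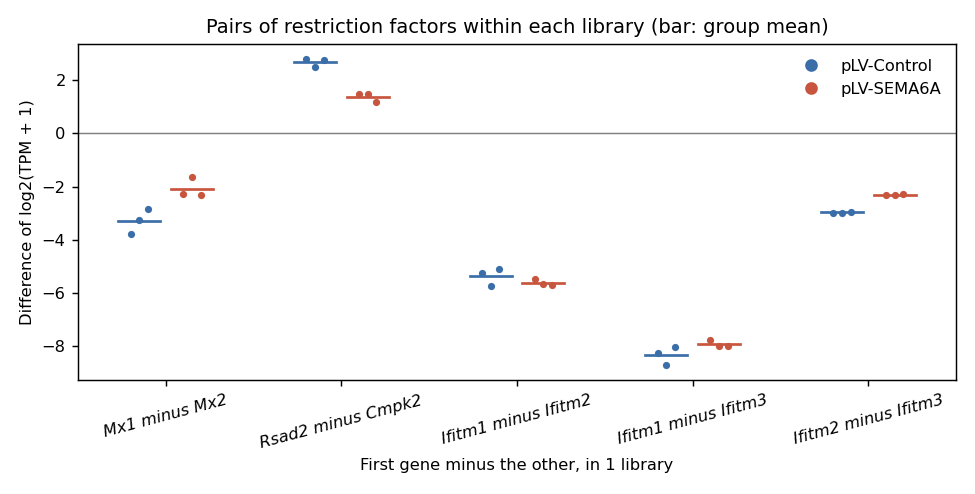
Difference of log2(TPM + 1) between the genes of 5 pairs in each library (points) with the group mean (bars), pLV-Control in blue and pLV-SEMA6A in red. The groups are apart for 4 pairs and overlap for Ifitm1 minus Ifitm2.

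Of 22 other restriction factors, 20 were tested, 14 were downregulated and 0 upregulated, with a median log2 fold change of −0.94. Over all genes tested, 10.8% were downregulated and 5.12% upregulated, and the median was −0.06. Sp100, a component of nuclear bodies that silence incoming viral DNA, fell from 29.3, 28.6 and 32.3 TPM to 5.2, 5.3 and 4.69 TPM, with a log2 fold change of −2.36. Trim30a, a ubiquitin ligase, fell from 6.1 ± 0.63 to 0.58 ± 0.40 TPM (−2.19; errors are SD of 3 libraries), having passed the filter on low values through its pLV-Control libraries, and the nucleic acid sensor Zbp1 from 21.2 ± 0.32 to 4.34 ± 0.60 TPM (−2.06). Ly6e, a membrane protein that blocks coronavirus entry, fell from 613 ± 13.3 to 201 ± 12.2 TPM (−1.61). Their adjusted p-values from limma were 3.5e-06, 2.7e-04, 1.6e-05 and 2.7e-06. Zc3hav1, the zinc finger antiviral protein, averaged 78.3 ± 1.91 TPM with pLV-Control against 84.5 ± 2.57 TPM with pLV-SEMA6A, with a log2 fold change of 0.11 (limma, adjusted p = 0.0458), below the minimum of 0.5. After centring each library on its median, Adar and Marchf8 lost their calls, which left 12.

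Of 16 listed genes of interferon signalling, 13 were tested, 8 were downregulated and 0 upregulated, against 10.8% and 5.12% of all genes tested. Their median log2 fold change was −0.88. Whether their changes came before those of the members was not tested. Irf7, the interferon-inducible regulator, fell from 213 ± 3.12 to 23.6 ± 1.85 TPM (SD, n = 3 each), with a log2 fold change of −3.13 (limma, adjusted p = 5.0e-07). The brake Usp18 changed by −2.27, Stat2 by −1.71 and Irf9 by −1.21. Stat2 fell from 58.7 ± 1.29 to 17.2 ± 1.45 TPM and Irf9 from 55.1 ± 1.84 to 23.2 ± 1.15 TPM (SD, n = 3 each). The receptor chain Ifnar2 changed by −0.64 and the kinase Tyk2 by −0.88, while Jak1 stood at a log2 fold change of 0.19 and Socs1 at 0.24, neither past the criterion. The only ligands on the list were Ifnb1, Ifnl2 and Ifnl3, and other interferon genes were not examined. Ifnl2 and Ifnl3 were listed at 0 in every library and Ifnb1 at 0 to 0.12 TPM in pLV-Control and 0 to 0.25 TPM in pLV-SEMA6A.

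SAMHD1 degrades deoxynucleotides, which 14 other listed enzymes make or salvage. All 14 were tested, 2 were downregulated and 3 upregulated, with a median log2 fold change of 0.13. Over all genes tested the shares were 10.8% and 5.12%, and the count of downregulated genes in the list is near that share. Thymidylate synthase (Tyms) rose from 44.2 ± 2.23 to 78.4 ± 5.04 TPM (SD, n = 3 each), with a log2 fold change of 0.81 (limma, adjusted p = 1.1e-04). Thymidylate kinase (Dtymk) changed by 0.65 and the ribonucleotide reductase subunit Rrm2 by 0.52. The mitochondrial kinase Tk2 fell from 16.0 ± 2.95 to 8.36 ± 0.22 TPM (SD, n = 3 each), with a log2 fold change of −0.85 (limma, adjusted p = 0.0023), and Rrm2b changed by −0.51. Cmpk1, the cytosolic counterpart of Cmpk2, averaged 23.4 ± 1.66 TPM with pLV-Control against 26.6 ± 0.83 TPM with pLV-SEMA6A (SD, n = 3 each), with a log2 fold change of 0.18 (limma, adjusted p = 0.0464) against −2.26 for Cmpk2. Centring turned the counts of the list to 1 downregulated and 5 upregulated. Rrm2b also lost its call without pLV-Control replicate 3, without pLV-SEMA6A replicate 2 and without pLV-SEMA6A replicate 3, and Rrm2 without pLV-Control replicate 1.

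Other relatives of the 10 genes and their neighbours on the chromosome were also examined. Of 9 relatives, 6 were tested, 2 were downregulated, Ifitm6 and Dnm1, and 0 were upregulated, against 10.8% and 5.12% of all genes tested. Ifitm6, next to the IFITM genes above, fell from 34.9 ± 4.5 to 15.8 ± 2.05 TPM (SD, n = 3 each), with a log2 fold change of −1.10 (limma, adjusted p = 5.1e-04). The neuronal dynamin Dnm1 changed by −0.92, and Dnm2 had a log2 fold change of −0.04 (limma, adjusted p = 0.425) that became 0.06 after centring. A neighbour was the nearest tested protein-coding gene on each side, where one was found. It could lie at any distance, with untested genes and members passed over. This gave 11 neighbours, of which 2 were downregulated, 1 was upregulated and the median log2 fold change was 0.01. These counts are near the 10.8% and 5.12% of all genes tested. The order of genes is that of GRCm38. Mvb12a, next to Bst2, changed by −0.85 (adjusted p = 3.2e-04 from limma), and Gtpbp3 on its other side had a log2 fold change of 0.01. Igsf5, beside the Mx genes, rose from 1.68 ± 0.49 to 6.15 ± 0.77 TPM (SD, n = 3 each), with a log2 fold change of 1.43. Id2 and Rps7, the nearest such genes on the sides of Rsad2 and Cmpk2, had log2 fold changes of 0.44 and −0.21, neither past the criterion. The same held for Soga1 (−0.08) and Rbl1 (0.42) beside Samhd1, Vps50 (0.36) beside Samd9l, Prdm15 (0.03) beside the Mx genes and Ifitm5 (−0.58, adjusted p = 0.0518 from limma).

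**Figure D5:**
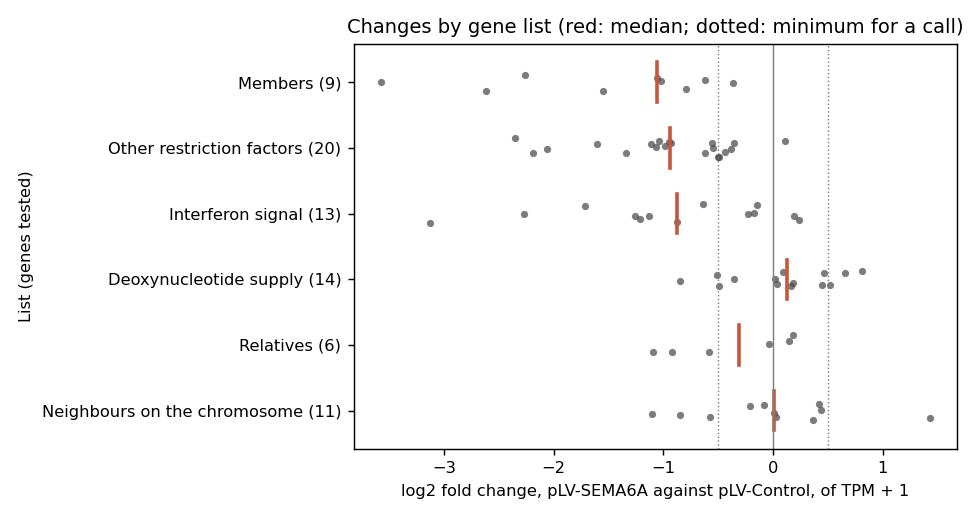
Log2 fold change of TPM + 1, pLV-SEMA6A against pLV-Control, of each tested gene (points) by list, with the median in red and the minimum of 0.5 dotted. The members, the other restriction factors and the interferon signal have medians of −1.06, −0.94 and −0.88, and the neighbours have a median of 0.01.

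Likeness to the members was measured as the Euclidean distance of a gene's centred log2(TPM + 1) values in the 6 libraries from the median profile of the 9 tested members. The nearest genes outside the list were Itm2c (0.07), Plcxd2 (0.10), Vwa5a (0.10), Eif2ak2 (0.10) and Gm6483 (0.11), all with log2 fold changes between −1.08 and −1.03. Eif2ak2 encodes the antiviral kinase PKR. Ifitm3 (0.11) and Samd9l (0.13) were the nearest members, while Rsad2 (3.06) and Bst2 (1.88) were the farthest. The median was taken from these same members, so members with middle values lie near it by construction. With 6 libraries in 2 groups, this distance mainly reads the size of the fall.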

How the data were processed

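Poly-A-selected mRNA of SL4 cells was sequenced by Illumina. TPM values with 2 decimals were deposited per library. Group means, also deposited, were not used. The header does not name the unit, and TPM was taken from the column sums. The submitters' processing notes name HISAT, Bowtie2, RSEM and mm39. Versions and annotation are not given in the sources used here. The methods name DESeq2, which needs read counts and was not run. GENCODE M21 (GRCm38), which holds 97.0% of the gene identifiers, gave biotypes, neighbours and transcripts.

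The limma package (3.58.1, R 4.3.3) modelled log2(TPM + 1) by group alone, with its trend option, for genes whose mean reached 1 TPM. The criterion is the one the methods give for limma. On simulated data, 89.5% of 200 changed genes (a log2 change of 1) were recovered among 12443 genes, 2.19% of calls were false, and 0 had the wrong direction. The changed genes left out the lowest genes and were equally many up and down, and the noise was normal and independent. In the data 1347 genes were downregulated and 640 upregulated, so these rates need not hold there. Exact permutation tests used scipy 1.17.1.

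The members and lists were chosen with earlier results of these data known. Named genes are the members, Sema6a, up to 4 called genes of each list in each direction with the largest change, Stat2, Irf9, Cmpk1, the neighbours and the 5 nearest profiles. A gene that the rule also names is not reported here. Marker genes and other uncalled or smaller list members were named after their values were seen.

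Alternatives were a pseudocount of 0.1, no filter, a filter at a mean of 5 TPM, median centring, the replicate block, limma without trend, other minimum fold changes and leaving out each library. The replicate numbers come from the labels. Libraries of the same number did not deviate together (r from −0.08 to −0.02), so no pairing by number was seen. With 3 libraries a group, this cannot show whether same-numbered libraries were prepared together.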

Additional observations from a re-analysis of the deposited data

How the results depend on the processing

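The 9 tested members kept their direction in every alternative in which they were tested. At the minimum log2 fold change of 0.5, between 7 and 8 members were downregulated in every fit, against 6 with a minimum of 1 and 9 without one. Ifitm1 lost its call when any of 4 libraries was left out, without a filter on low values (adjusted p = 0.0741 from limma) and, as did Samhd1, with the minimum of 1. Cmpk2 was not tested at a mean of at least 5 TPM, where 7 members were downregulated. Leaving out each library gave 1280 to 1346 downregulated and 616 to 631 upregulated genes in all, against 1347 and 640. It gave 14 to 17 other restriction factors, 8 interferon signal genes, and 1 to 2 downregulated and 2 to 3 upregulated deoxynucleotide genes. Without a minimum fold change, 3523 genes were lower and 2436 higher, among them 19 other restriction factors lower and 1 higher, and 4 deoxynucleotide genes lower and 7 higher. With a minimum of 1, the counts were 304 and 81 genes, 8 other restriction factors lower, and 0 deoxynucleotide genes in either direction. Centring gave 961 downregulated and 1002 upregulated genes, and 1 and 5 deoxynucleotide genes. The replicate block called 1924 genes, of which 1875 were among the 1987 without it, and it called 8 members. No same-numbered libraries correlated best with each other. The highest adjusted p with the block was 0.0329 from limma, for Ifitm1. Read depth is unknown from TPM, and the values of Mx1 and of Cmpk2 in pLV-SEMA6A, under 1 TPM, are the least certain.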
